A study of Mus musculus with 6 samples.

Results

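Collagens are secreted proteins that assemble into fibres, networks and filaments of the extracellular matrix, and a further set of enzymes and chaperones modifies, folds, trims and crosslinks them. The genes described here were a list of 44 collagen chains, collagen processing enzymes and matrix proteins that bind collagen. Each was represented by 1 Affymetrix probe set annotated to that gene alone, the one with the highest mean over the arrays. Of the 44 listed genes 42 had such a probe set, among 12393 genes measured in all. Loxl2, whose probe set is shared with another gene, and Fbn1 gave no value. The gene listed as Leprel2 is named P3h3 here.

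All samples derive from 344SQ, a mouse lung tumour line that metastasises and has high Zeb1. The vector group held 3 samples of 344SQ cells with a control vector, and the miR-34a group held 3 samples of 344SQ cells that inducibly expressed the microRNA miR-34a. Both groups therefore share the genotype of 1 cell line, and no source used here gives the inducing agent, its duration or the strain and age of a host. The labels do not settle what the RNA was taken from. The series design and the miR-34a titles name tumours, the vector titles name no tissue, and the sample descriptions name cells. Markers of other cells had intensities such as 1809 to 5606 for C1qa of macrophages and 822.1 to 1892.5 for Cdh5 of endothelium. Whether these came from host cells was not tested. Whether replicates were independent animals or cultures is unstated, so the p-values reflect the spread among these 6 arrays, which could be technical.

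The fibrillar collagens, types I, III, V and XI, form the banded fibres of connective tissue, and in tumours fibroblasts are their best known source. Type IV collagen forms the sheet of the basement membrane, on which types XV and XVIII also lie, and type VI collagen forms beaded filaments around cells. Before secretion, prolyl and lysyl hydroxylases modify the chains and the chaperone HSP47 guides their folding. Outside the cell, propeptides are removed and lysyl oxidases start the crosslinks that stiffen the fibre. The miR-34a samples are compared with the vector samples for what induced miR-34a changes in 344SQ. The agent that separates the groups is shown for reference as its mature strand from RefSeq, with the seed, bases 2 to 8, in capitals. It lies at chr4:150068473-150068494 on the plus strand of GRCm38.p6.

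mmu-miR-34a-5p: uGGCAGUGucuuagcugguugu

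Values are deposited intensities on a linear scale, and changes are differences of log2(intensity + 16), miR-34a minus vector, tested with limma with Benjamini-Hochberg adjustment over the 12393 genes. The medians of the arrays ran from 466.7 to 484.2. Vector 1 stood apart from the other vector arrays across genes, with Pearson's r of 0.969 and 0.972 against 0.993 between vector 2 and vector 3, and the value of a gene without it is given where that ends or makes a call, turns the direction or moves the value by over 1.5 times. No array was a copy of another, and 3 arrays per group limit the precision.

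Of the 42 genes 6 passed the test. The type VI chains Col6a1 and Col6a2, the basement membrane chain Col4a5 and the procollagen cleavage enhancer Pcolce rose in miR-34a samples, by 1.62-fold to 2.17-fold. The lysyl hydroxylase Plod2 fell 3.26-fold and the second cleavage enhancer Pcolce2 fell 2.20-fold. Thus 4 of 42 (9.52%) were called higher, where 6.50% of all genes were, and 2 of 42 (4.76%) were called lower, where 5.25% of all genes were, so neither count stood far from the background. The fit without vector 1 called the same 6 genes, 4 higher and 2 lower, where 10.1% and 7.15% of all genes were called. At an unadjusted p under 0.05 there were 13 of the 42 genes (31.0%), where 28.2% of all genes were, so this count too lay near the background. Leaving out miR-34a 3 left 1 of the 4 higher calls, Col4a5, and leaving out miR-34a 1 left 2, Col4a5 and Col6a1.

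**Figure D1:**
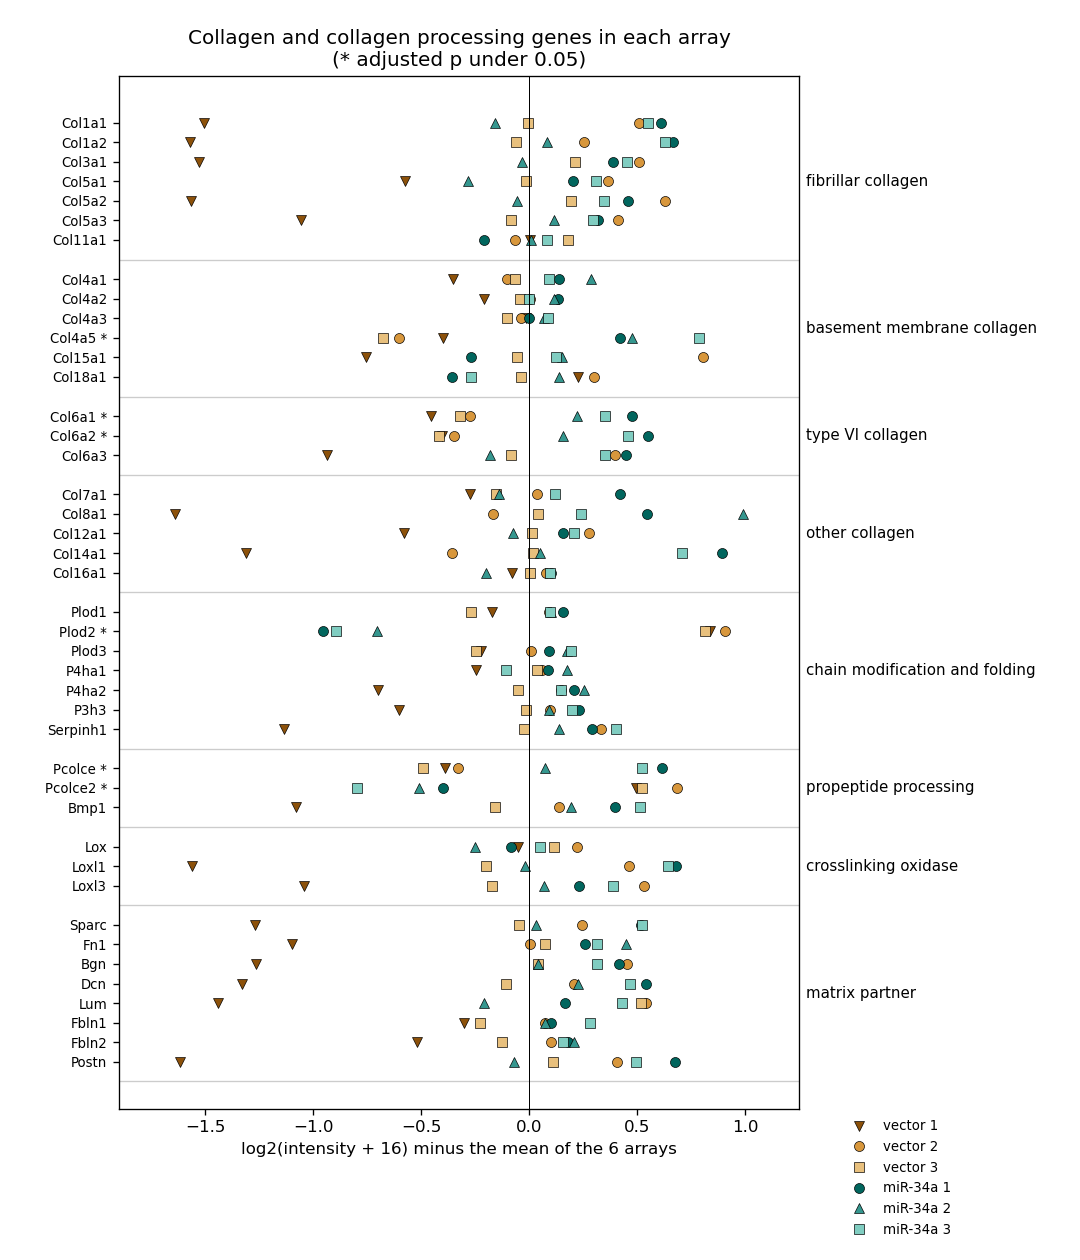
Each row is 1 gene and each point 1 array, as log2(intensity + 16) minus the gene's mean over the 6 arrays, with genes ordered by role. Vector 1, drawn as a dark triangle pointing down, lies far to the left in most fibrillar collagens and matrix partners, while Col6a1, Col6a2, Col4a5, Plod2, Pcolce and Pcolce2 separate the groups with vector 1 beside the other vector arrays.

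The genes of the list were on balance higher in miR-34a samples over the 6 arrays, and vector 1 carried most of that shift. Of the 42 genes 36 (85.7%) had a change above 0, where 54.3% of all genes did, with a median of 0.41 against 0.024 over all genes. Without vector 1 the count above 0 was 30 of 42, where it was 7454 of the 12393 genes in all. The median was then 0.12, against 0.051 over all genes. The genes that lay below 0 over the 6 arrays were Col11a1, Col16a1, Col18a1, Lox, Plod2 and Pcolce2. Under quantile normalization or median centring Col15a1 joined them, and 35 lay above 0. The groups did not overlap, with miR-34a higher, in 15 of 42 (35.7%), where 20.8% of all genes did so, and with miR-34a lower in 2 of 42 (4.76%), where 14.0% did so.

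Vector 1 lay at least 2-fold below the mean of vector 2 and vector 3 in 19 of the 42 genes (45.2%), where 2.74% of all genes did. These 19 were 5 of 7 fibrillar collagens, 6 of 8 matrix partners, 2 of 3 lysyl oxidases and 1 or 2 genes of each remaining role. In 30 of 42 genes vector 1 was the lowest of the 6 arrays, against 21.6% of all genes. Within the miR-34a group a smaller difference ran the same way: miR-34a 2 was the lowest of its group in 26 genes (61.9%, against 34.1% of all genes). In 24 of the 42 genes (57.1%, against 10.4% of all genes) vector 1 was the lowest of the vector arrays and miR-34a 2 the lowest of the miR-34a arrays. In bulk samples fewer cells of a type and less RNA per cell cannot be told apart.

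Among the fibrillar collagens 0 of 7 genes passed the test, and 0 had an unadjusted p under 0.05. Col1a1, the main chain of type I collagen, had intensities of 1593, 6494 and 4529 in vector 1 to vector 3 and 6959, 4081 and 6669 in miR-34a 1 to miR-34a 3. The groups overlapped, and the low vector 1 array set the difference of the means. The log2 mean was 11.82 ± 1.05 in vector and 12.49 ± 0.43 in miR-34a samples (SD, n = 3), differing by 0.67 ± 0.49 (SE; limma adjusted p = 0.433), with a 95% interval from -0.50 to 1.83. Without vector 1 the change was 0.082 ± 0.24 (SE; limma adjusted p = 0.858).

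Col1a2, the partner chain of Col1a1, had 2897, 10290 and 8256 in the vector arrays and 13685, 9125 and 13356 in the miR-34a arrays. Its change was 0.92 ± 0.45 (SE; limma adjusted p = 0.235), and 0.36 ± 0.19 without vector 1. Col3a1, the chain of type III collagen found with type I in soft tissue, had 2712, 11183 and 9096 in the vector arrays and 10305, 7668 and 10782 in the miR-34a arrays. Vector 2 was the highest array for Col3a1, and its change turned from 0.54 over the 6 arrays to -0.089 without vector 1. The type V chains, which regulate the width of fibres, gave 0.15 for Col5a1, 0.50 for Col5a2 and 0.49 for Col5a3, and -0.100, -0.16 and 0.080 without vector 1. Col11a1, a minor fibrillar chain best known from cartilage, had low intensities of 94.4 to 129 over the 6 arrays and a change of -0.079. Its vector 1 value of 112 lay between the 106 of vector 2 and the 129 of vector 3. No detection calls were used, so such a dim probe set cannot be told from background.

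In each of the 7 fibrillar genes the 95% interval of the difference included 0. Their median change was 0.50, and -0.089 without vector 1. Vector 1 lay below the other vector arrays by a median of 1.66 in log2 (-1.66), and miR-34a 2 below the other miR-34a arrays by a median of 0.46 (-0.46).

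Of the type VI chains 2 of 3 rose and the third did not pass. Type VI collagen is built from an alpha 1, an alpha 2 and an alpha 3 chain, so these genes encode parts of 1 molecule. Col6a1 (probe set 1448590_at) had intensities of 4200, 4756 and 4615 in the vector arrays and 8014, 6712 and 7352 in the miR-34a arrays. The groups were well apart and vector 1 lay beside the other vector arrays. The log2 mean went from 12.15 ± 0.093 to 12.84 ± 0.13 (SD, n = 3), up by 0.70 ± 0.098 (SE; limma adjusted p = 0.00916), and 0.65 ± 0.10 without vector 1.

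Col6a2 (probe set 1452250_a_at) had 4744, 4920 and 4700 in the vector arrays and 9188, 6996 and 8633 in the miR-34a arrays. Each miR-34a array lay above each vector array, and miR-34a 2 was the lowest of its group. The change was 0.78 ± 0.11 (SE; limma adjusted p = 0.0107), and 0.77 ± 0.13 without vector 1. A second Col6a2 probe set, tested alone, changed by 0.80 ± 0.12 (SE; limma adjusted p = 0.0086).

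Col6a3, the largest chain of type VI collagen, had 1599, 4053 and 2901 in the vector arrays and 4198, 2709 and 3927 in the miR-34a arrays. Its groups overlapped, with vector 1 lowest and miR-34a 2 below vector 2 and vector 3. Its change was 0.41 ± 0.33 (SE; limma adjusted p = 0.476; 95% interval -0.37 to 1.20), and 0.049 ± 0.21 without vector 1. Whether Col6a3 differed from Col6a1 and Col6a2 in its change was not tested. The call of Col6a1 was lost without miR-34a 3 (limma adjusted p = 0.0541, range over its alternatives 0.00137 to 0.0541), and that of Col6a2 without miR-34a 1 or miR-34a 3 (0.0532 and 0.0617, range 0.00138 to 0.0617). Their changes stayed between 0.64 and 0.89 over the fits that omit 1 array.

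Col6a1 and Col6a2 are neighbours in the mouse genome, with 0 protein-coding genes between them in the GRCm38.p6 table, and Col4a5 and Pcolce lie elsewhere. As these are the 4 genes called higher, the 250 bases before an annotated start of each, from RefSeq on GRCm38.p6, are shown next, the most upstream start for Col6a2. Capitals mark matches, on either strand, to 4 short motifs: the CCAAT box (CCAAT), the GC box (GGGCGG), the TATA box (TATAAA) and the E-box bound by ZEB factors (CACCTG), none of which contains another. The Col4a5 window lies at chrX:141475169-141475418 on the plus strand. The others lie on the minus strand, Col6a1 at chr10:76726045-76726294, Col6a2 at chr10:76623631-76623880 and Pcolce at chr5:137611405-137611654.

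Col4a5: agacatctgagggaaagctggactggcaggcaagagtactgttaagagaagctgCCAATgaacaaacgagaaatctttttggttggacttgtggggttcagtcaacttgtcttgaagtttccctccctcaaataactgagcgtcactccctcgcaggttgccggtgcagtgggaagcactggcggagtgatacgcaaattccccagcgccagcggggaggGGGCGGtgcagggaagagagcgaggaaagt
Col6a1: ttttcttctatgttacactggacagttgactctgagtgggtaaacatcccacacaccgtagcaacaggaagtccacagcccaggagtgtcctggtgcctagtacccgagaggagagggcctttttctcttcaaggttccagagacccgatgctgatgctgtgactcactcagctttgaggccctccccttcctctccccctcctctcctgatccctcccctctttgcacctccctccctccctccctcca
Col6a2: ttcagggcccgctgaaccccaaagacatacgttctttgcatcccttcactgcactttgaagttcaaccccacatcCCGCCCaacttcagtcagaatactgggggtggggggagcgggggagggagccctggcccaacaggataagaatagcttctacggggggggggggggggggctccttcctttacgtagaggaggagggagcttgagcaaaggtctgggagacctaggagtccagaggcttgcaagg
Pcolce: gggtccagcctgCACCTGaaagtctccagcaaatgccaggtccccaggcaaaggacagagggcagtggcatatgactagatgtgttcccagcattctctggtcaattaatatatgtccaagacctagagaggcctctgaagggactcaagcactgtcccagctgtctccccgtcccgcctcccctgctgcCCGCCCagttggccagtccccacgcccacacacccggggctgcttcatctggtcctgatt

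The Col4a5 window held 1 CCAAT box and 1 GC box, the Col6a1 window held 0 matches to these letters, the Col6a2 window 1 GC box (3 in the window of its other start), and the Pcolce window 1 GC box and 1 E-box. For 29 of the 42 genes 33 such windows were used. No window was taken for members on 1 chromosome, a filter not applied to the windows of all genes. The GC box letters stood in 21 of the 33 (63.6%), against 32.7% of the 32851 windows of all genes. The CCAAT letters stood in 30.3% against 33.8%, the TATA letters in 9.09% against 12.4% and the E-box letters in 9.09% against 17.2%. These are descriptions of letters in a window and say nothing about binding.

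Among the basement membrane collagens 1 of 6 genes, Col4a5, rose. Col4a5 encodes a type IV chain best known from the kidney filter, where its mutation causes Alport syndrome. Its probe set 1425476_at had 387, 334 and 317 in the vector arrays and 696, 724 and 900 in the miR-34a arrays. The groups did not overlap, and vector 1 was the highest of the vector arrays, unlike in the fibrillar genes. The change was 1.12 ± 0.13 (SE; limma adjusted p = 0.0059), and 1.20 ± 0.12 without vector 1. A second Col4a5 probe set, with intensities of 208 to 289, changed by 0.10 ± 0.14 when tested alone (SE; limma adjusted p = 0.67), so the 2 probe sets of the gene disagree. The call of the gene was kept in each of the 15 alternative settings. In 1 of these, the mean of both probe sets, the change was 0.61 (limma adjusted p = 0.0258).

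Col4a1 and Col4a2, the chains of the common type IV network and adjacent genes with 0 protein-coding genes between them, had changes of 0.35 ± 0.11 and 0.16 ± 0.090 (SE; limma adjusted p = 0.0816 and 0.286), and that of Col4a2 was 0.10 without vector 1. Col4a1 had 4314, 5136 and 5264 in the vector arrays and 6067, 6728 and 5881 in the miR-34a arrays, so its groups did not overlap although it did not pass. Col4a2 had 4288, 4976 and 4804 against 5439, 5357 and 4957, with an overlap of 1 array. Vector 1 was low in both by only 0.27 and 0.19 in log2 (-0.27 and -0.19), far less than in type I collagen. Col4a3, a partner of Col4a5 in the kidney filter, gave 0.10, with intensities of 266 to 306.

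Col15a1 and Col18a1 encode the multiplexins, the second of which releases endostatin. Col15a1 had 413, 1245 and 679 in the vector arrays and 584, 788 and 773 in the miR-34a arrays, a change of 0.0063 that was -0.37 without vector 1. Col18a1 had 4827, 5071 and 4015 against 3212, 4529 and 3418, and differed by -0.33 ± 0.15 (SE; limma adjusted p = 0.219). The groups overlapped in both genes, and a second Col18a1 probe set gave -0.30.

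Of the other collagens 0 of 5 passed. Col8a1, a network collagen of vessel walls, had 354, 1011 and 1170 in the vector arrays and 1668, 2274 and 1345 in the miR-34a arrays, and differed by 1.18 ± 0.43 (SE; limma adjusted p = 0.128). A second Col8a1 probe set gave -0.60, the opposite sign. Col14a1, which sits on the surface of fibres, had 147, 300.0 and 394 against 737, 404 and 645, and differed by 1.10 ± 0.36 (SE; limma adjusted p = 0.0956). In both genes the groups did not overlap and the sizes were 0.65 and 0.72 without vector 1. Col7a1, the anchoring fibril collagen of skin, had 627, 781 and 683 in the vector arrays and 1025, 690 and 828 in the miR-34a arrays, with overlapping groups and a change of 0.26. Col12a1, also a fibre surface collagen, gave 0.19, which turned to -0.048 without vector 1, and Col16a1 gave -0.0010 and -0.041 without it.

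**Figure D2:**
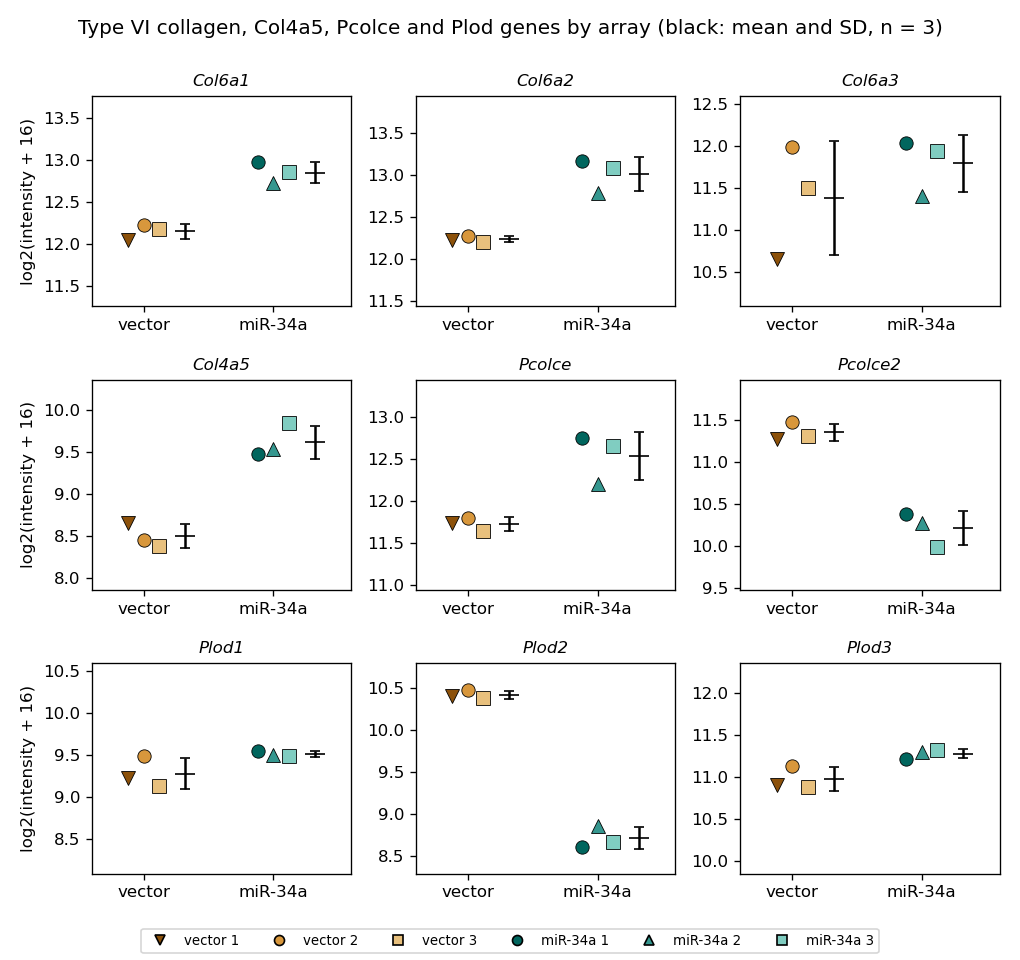
Each panel gives 1 gene in log2(intensity + 16) on an axis of equal span, with 1 point per array and the mean and SD of each group (n = 3) in black. Col6a1, Col6a2, Col4a5 and Pcolce lie higher in each miR-34a array, Pcolce2 and Plod2 lower, while Col6a3 overlaps between groups and Plod1 and Plod3 differ by 0.23 and 0.31.

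Inside the cell, the enzymes and the chaperone that prepare the chains held the largest change of the list. Plod2 encodes the lysyl hydroxylase that acts on the telopeptides of fibrillar collagen and thereby fixes which crosslinks form. Its probe set 1416686_at had 1336, 1401 and 1312 in the vector arrays and 374, 447 and 391 in the miR-34a arrays. The arrays of each group lay close together and the groups were far apart. The log2 mean went from 10.41 ± 0.049 to 8.71 ± 0.13 (SD, n = 3), a log2 difference of -1.70 ± 0.092 (SE; limma adjusted p = 0.000844), and -1.71 ± 0.10 without vector 1.

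A second Plod2 probe set, tested alone, had 737, 796 and 719 against 337, 444 and 311 and changed by -1.03 ± 0.14 (SE; limma adjusted p = 0.00598). Plod2 kept its call in each of the 15 alternative settings, with changes of -1.78 to -1.65 when each array was left out. Its relatives Plod1 and Plod3, which hydroxylate lysines of the helix, did not pass, with 0.23 ± 0.11 and 0.31 ± 0.095 (SE; limma adjusted p = 0.209 and 0.0845). Plod1 had 583, 703 and 545 in the vector arrays and 736, 708 and 705 in the miR-34a arrays. Plod3 had 1903, 2236 and 1874 against 2368, 2510 and 2542, so that in both genes the groups did not overlap, with miR-34a higher. Their 95% intervals, unadjusted for the number of genes, ran from -0.019 to 0.49 and from 0.081 to 0.53, and that of Plod2 from -1.92 to -1.49.

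P4ha1 and P4ha2 encode the catalytic subunits of the prolyl hydroxylases whose product stabilizes the helix. The P4ha1 probe set taken by the rule had 3488, 4310 and 4248 in the vector arrays and 4402, 4668 and 3839 in the miR-34a arrays, and differed by 0.10 ± 0.12 (SE; limma adjusted p = 0.633), and 0.0035 without vector 1. A dimmer P4ha1 probe set had 1259, 1017 and 1437 against 545, 595 and 528, with no overlap. Tested alone it changed by -1.12 ± 0.13 (SE; limma adjusted p = 0.00451), so the gene's 2 probe sets disagree, and with the mean of both the change was -0.51. P4ha2 gave 0.40, P3h3, a prolyl 3-hydroxylase family gene, 0.35, and Serpinh1, which encodes HSP47, 0.55, and none of these 3 passed. Without vector 1, P4ha2 gave 0.15 and P3h3 0.13. Serpinh1 had 1959, 5441 and 4248 in the vector arrays and 5289, 4761 and 5713 in the miR-34a arrays, the same low vector 1 as the fibrillar genes, and its change without that array was 0.12.

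The procollagen cleavage enhancers went in opposite directions. Pcolce and Pcolce2 encode related secreted proteins that speed the removal of the C-propeptide by the protease BMP1. Pcolce (probe set 1437165_a_at) had 3404, 3546 and 3168 in the vector arrays and 6836, 4688 and 6418 in the miR-34a arrays. The groups did not overlap and miR-34a 2 was the lowest of its group. The change was 0.81 ± 0.15 (SE; limma adjusted p = 0.0193), 0.81 ± 0.16 without vector 1, and 0.81 ± 0.11 on a second probe set tested alone (SE; limma adjusted p = 0.00649). The call was lost without vector 3, miR-34a 1 or miR-34a 3 (limma adjusted p = 0.0653, 0.0771 and 0.091, range over its alternatives 0.0024 to 0.091), while the change stayed between 0.70 and 0.97 when each array was left out.

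Pcolce2 (probe set 1451527_at) had 2460, 2811 and 2511 in the vector arrays and 1315, 1218 and 995 in the miR-34a arrays. The groups were far apart, and the change was -1.14 ± 0.12 (SE; limma adjusted p = 0.00541), and -1.17 ± 0.13 without vector 1. Pcolce2 kept its call in each of the 15 alternative settings. Bmp1 itself had 782, 1844 and 1496 in the vector arrays and 2206, 1915 and 2393 in the miR-34a arrays, and differed by 0.73 ± 0.29 (SE; limma adjusted p = 0.153). Its groups did not overlap, and without vector 1 the change was 0.38.

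Of the lysyl oxidases 0 of 3 measured passed. Lox, the founding member, had 940, 1142 and 1059 in the vector arrays and 920, 819 and 1011 in the miR-34a arrays, and differed by -0.19 ± 0.11 (SE; limma adjusted p = 0.322). Other Lox probe sets gave -0.41 and -0.21, and the first of these had 418, 1474 and 1012 in the vector arrays against 694, 543 and 695, with vector 1 low. Loxl1 had 388, 1625 and 1022 against 1892, 1161 and 1842, and differed by 0.87 ± 0.48 (SE; limma adjusted p = 0.293) and 0.30 without vector 1. Loxl3 gave 0.46, and 0.048 without vector 1. Lox was thus the measured oxidase whose change lay below 0, on each of its 3 probe sets, and the low vector 1 of Loxl1 and Loxl3 stood on 1 of those.

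Among the proteins that share the matrix with collagen 0 of 8 measured passed, and each had a change above 0, where 54.3% of all genes did. Fn1, which encodes fibronectin, had 4666, 10005 and 10530 in the vector arrays and 11963, 13632 and 12430 in the miR-34a arrays, and differed by 0.68 ± 0.30 (SE; limma adjusted p = 0.187). Fbln2, a fibulin gene, had 5948, 9128 and 7803 against 9656, 9837 and 9501, and differed by 0.36 ± 0.15 (SE; limma adjusted p = 0.173). In both genes the groups did not overlap, and without vector 1 the changes were 0.30 and 0.20. By narrow margins, the groups also did not overlap in Dcn, which encodes the small proteoglycan decorin, at 0.82 (0.36 without vector 1), and in Fbln1 at 0.30. The highest vector array and the lowest miR-34a array had 4803 and 4871 in Dcn, and 859.1 and 859.3 in Fbln1. A second Fbln1 probe set gave 0.22 with overlapping groups.

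Sparc, whose product binds collagen during secretion, had 3174, 9077 and 7426 in the vector arrays and 10984, 7839 and 10996 in the miR-34a arrays, a change of 0.71 that was 0.26 without vector 1. Bgn, which encodes biglycan, gave 0.51 and 0.0098 without vector 1, and Postn, which encodes periostin, 0.73 and 0.11. Lum, which encodes lumican, had 369, 1504 and 1478 against 1158, 889 and 1390, and its change went from 0.26 to -0.40 without vector 1. The 8 genes had vector 1 as the lowest of the 6 arrays without exception.

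**Figure D3:**
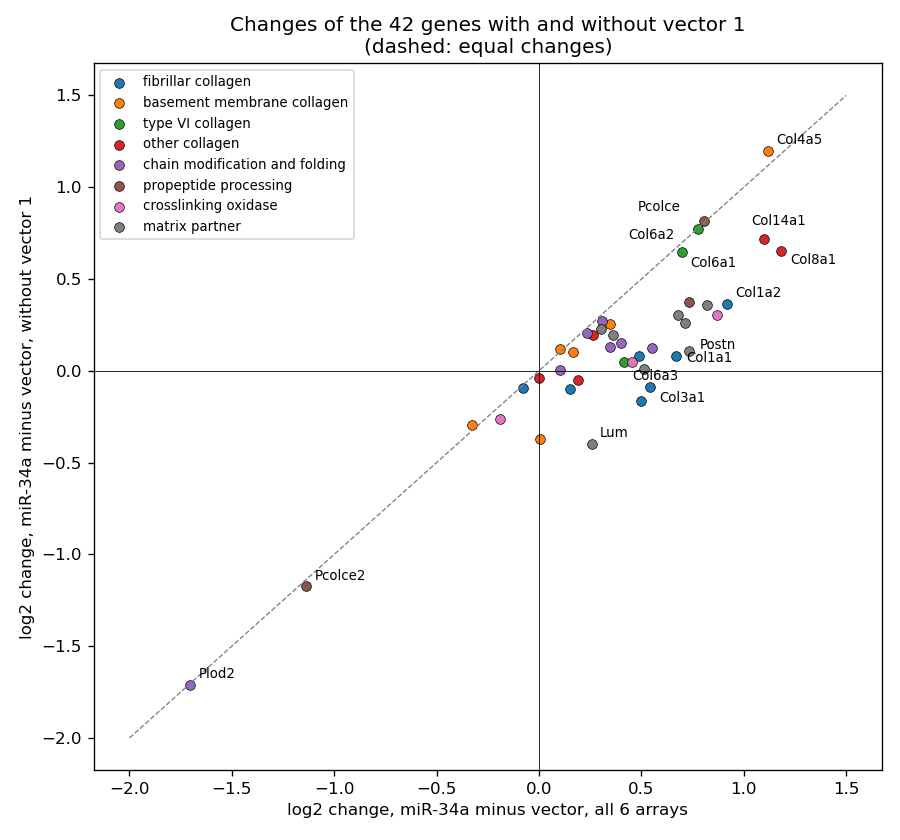
Each point is 1 of the 42 genes, with the log2 change over the 6 arrays on the horizontal axis and the log2 change without vector 1 on the vertical axis, coloured by role. The 6 called genes lie near the dashed line of equal changes, while Col1a1, Col3a1, Postn and Lum lie well below it.

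Several members had more than 1 probe set, 23 genes with 27 further probe sets. Of these 25 changed in the same direction as the probe set used, and the exceptions were those of Col8a1 and P4ha1. With each of the members' 69 probe sets tested alone, 6 were called higher and 4 lower, where 6.47% and 7.18% of all probe sets with 1 gene were called.

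Some markers of other cells were low in vector 1 too. Of fibroblast markers that are not matrix genes, vector 1 was at least 2-fold below the mean of the other vector arrays in 6 of 15. This was so in 2.74% of all genes. Of macrophage markers vector 1 was that low in 4 of 10, of endothelial markers in 2 of 11 and of pericyte and smooth muscle markers in 2 of 11. It was so in 3 of 6 regulators of the mesenchymal state. Of skeletal muscle markers it was so in 0 of 8, and of cartilage and bone markers in 0 of 8. The median deviation of the macrophage list was -0.92 in vector 1, against -0.15 to 0.42 in the other arrays, and that of the fibroblast list was -0.18, against -0.14 to 0.29. For the fibrillar collagens the same measure was -1.51 in vector 1, against -0.035 to 0.41. The summed intensity of the fibroblast markers ran from 19454 to 20814 in vector and from 16795 to 20479 in miR-34a arrays, with S100a4, which some tumour cells also express, the brightest of them in each array. S100a4 alone gave 14085, 9593 and 12754 of the sum in vector 1 to vector 3. In the miR-34a arrays it gave 5869 to 6566, so the sum says little about the other fibroblast markers. The summed intensity of the epithelial and carcinoma markers, such as Krt18, was 81506 in vector 1 and 69738 to 77366 in the other arrays. Krt19, among the brightest of these, had 19739 in vector 1 against 11940 and 12667 in vector 2 and vector 3. Vector 1 was the lowest of the vector arrays in 4 of these 9 markers, and at least 2-fold below the mean of the others in 1. That marker, Epcam, had 305 in vector 1 and 977 and 1463 in vector 2 and vector 3. For pericyte and smooth muscle markers the sums ran from 4280 to 7598 in vector and 5336 to 7851 in miR-34a arrays, for endothelial markers from 6200 to 10678 and 8609 to 8659, and for macrophage markers from 17431 to 23524 and 23985 to 27211. Skeletal muscle markers summed to 1677 to 2291 in vector and 1852 to 5753 in miR-34a arrays, and cartilage and bone markers to 4485 to 7096, highest in vector 1, and 3584 to 4478. No marker stood at the table's lowest value of 1 in any array. The part of these cells in the collagen values was not tested.

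**Figure D4:**
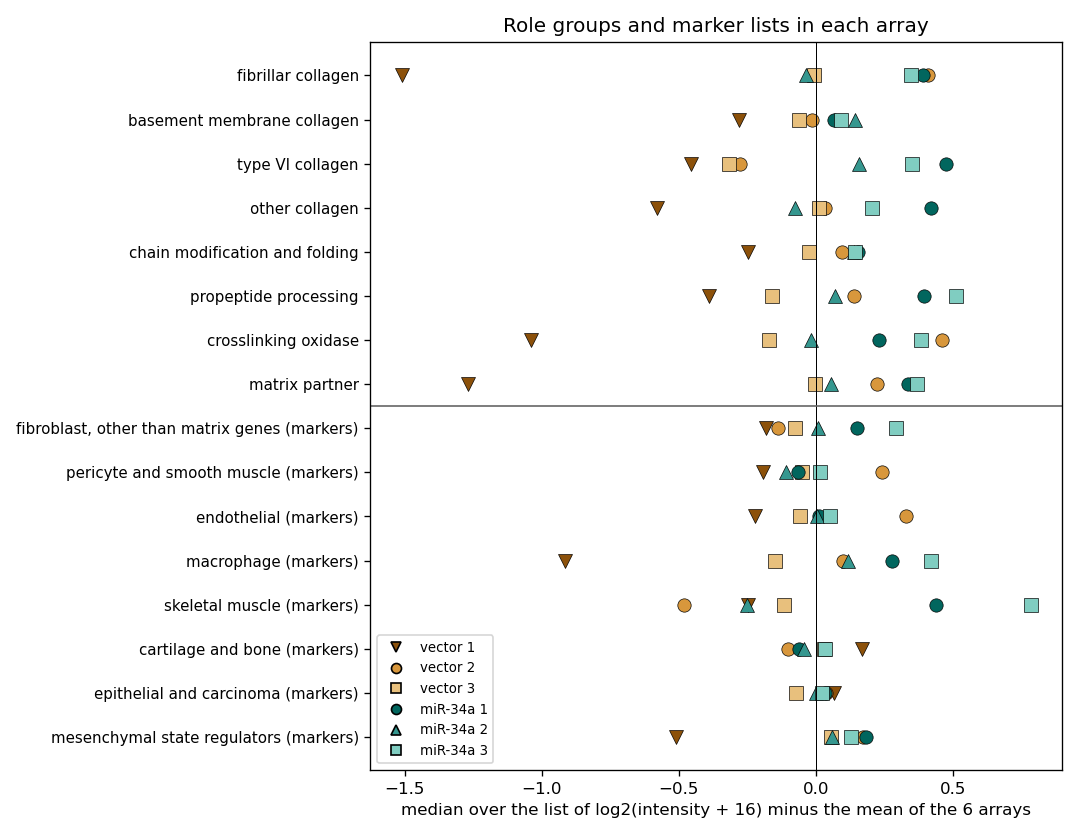
Each point is the median over 1 list of log2(intensity + 16) minus the gene's mean over the 6 arrays, for 1 array, with role groups of the collagen list above the line and marker lists below it. Vector 1 lies at -1.51 for fibrillar collagens, -1.27 for matrix partners, -1.04 for lysyl oxidases and -0.92 for macrophage markers, and at 0.069 for epithelial markers.

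Between the groups, 3 of the 15 fibroblast markers (20%) rose and 1 (6.67%) fell, where 6.50% and 5.25% of all genes were called. Thy1, a fibroblast surface protein also found on T cells, rose by 1.73, and the transcription factor genes Twist1 and Twist2 rose by 1.57 and 1.49. S100a4, the calcium-binding protein named above, fell by 0.95 in log2. Pdgfra, the defining receptor of fibroblasts, did not pass, with 187, 526 and 478 in the vector arrays and 832, 429 and 708 in the miR-34a arrays, a change of 0.78 that was 0.33 without vector 1. Of pericyte and smooth muscle markers 0 of 11 rose and Abcc9 fell by 0.86. The brightest of that list, Acta2, gave 0.95 and did not pass (0.53 without vector 1), and without that array Mcam was called lower at -0.48. Of macrophage markers 2 of 10 (20%), C1qb and Fcgr1, rose by 1.13 and 0.98, and 1 (10%), Mrc1, fell by 0.99. Without vector 1 the changes of C1qb and Fcgr1 were 0.78 and 0.71, still called. The brightest, Ctss, gave 0.47, which was 0.0092 without vector 1. In that fit C1qa was called higher too, at 0.49 (limma adjusted p = 0.030). The endothelial list (0 of 11), the skeletal muscle list (0 of 8) and the cartilage and bone list (0 of 8) held no called gene over the 6 arrays. Flt1, the brightest endothelial marker, gave 0.32 and turned to -0.16 without vector 1, and the endothelial genes above 0 went from 8 to 4 of 11. Ckm, the muscle marker with the highest mean log2 value, gave 0.37. Acta1, brighter than Ckm in miR-34a 1 and miR-34a 3, gave 1.6 and did not pass. It had 214, 177 and 583 in the vector arrays and 1486, 169 and 2617 in the miR-34a arrays. Each of the 8 muscle genes lay above 0, where 54.3% of all genes did, with a median of 0.60 (0.59 without vector 1). In 7 of the 8, miR-34a 2 was the lowest of its group. The list's median deviation was -0.25 in miR-34a 2, within the -0.48 to -0.11 of the vector arrays. It was 0.44 in miR-34a 1 and 0.78 in miR-34a 3. Acan, the brightest cartilage marker, gave -0.65 and -0.22 without vector 1, a fit in which Sox9 was called lower at -0.32. Of the epithelial markers 0 of 9 were called, with Krt18 at 0.053 and 0.10 without vector 1. Of the regulators of the mesenchymal state 0 of 6 were called over the 6 arrays, a list without Twist1 and Twist2. Those genes, placed here among the fibroblast markers, were called higher as given above. Cdh2, which encodes N-cadherin, gave 2.00 with groups that did not overlap, and vector 1 minus the mean of the other vector arrays was -3.69 in log2. Without vector 1 Cdh2 was called higher at 0.77 (limma adjusted p = 0.0167) and Snai2 lower at -0.39 (limma adjusted p = 0.0446), from -0.0075 over the 6 arrays. Zeb2 gave 0.73 and Snai1 0.34, with 0.32 for Zeb2 without vector 1. Zeb1 gave 0.027 and Vim, which encodes vimentin, 0.092, and these were -0.061 and 0.043 without vector 1.

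Lists of other genes of collagen and its surroundings gave 8 called higher (10.4%) and 1 lower (1.3%) of 77 measured, beside the 6.50% and 5.25% of all genes, and 1 of the 77, Serpinh1, is also among the 42. Without vector 1 the counts were 11 higher and 2 lower, beside 10.1% and 7.15% of all genes. The genes that build the laminin layer of the basement membrane held 4 of the rises, of 14 measured. Lamb2, a laminin beta chain, had 416, 468 and 413 in the vector arrays and 878, 755 and 907 in the miR-34a arrays, and differed by 0.94 ± 0.10 (SE; limma adjusted p = 0.00545). Lama2, the alpha chain of muscle and nerve laminin, rose by 0.84, Lama5, the broad alpha chain of adult basement membranes, by 0.53, and Agrn, which encodes the proteoglycan agrin, by 0.53. These 4 kept their calls without vector 1, and the list's median was 0.30 and 0.14 without that array.

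Of 15 further collagen chains Col26a1 rose by 1.27, from intensities of 41.7 to 49.3 in vector to 83.8 to 166 in miR-34a arrays, a low range in which the pseudocount reduces the size. Of 19 genes for collagen biosynthesis, Serpinh1 among them, 0 were called higher over the 6 arrays, and Pdia4, an oxidoreductase of the endoplasmic reticulum, fell by 0.59. P3h4, of the prolyl 3-hydroxylase family, gave 0.97 with groups that did not overlap and was called higher without vector 1, at 0.63 (limma adjusted p = 0.0218). Of 6 collagen receptors Ddr1, a receptor kinase that binds collagen, rose by 0.63, and the integrin gene Itgb1 gave -0.34 and did not pass, but was called lower without vector 1, at -0.44 (limma adjusted p = 0.0214). Of 23 further interstitial matrix genes Fbln5, a fibulin of elastic fibres, rose by 1.43 and Fbn2, a fibrillin gene, by 0.99. Vector 1 lay below the other vector arrays in both, by 1.23 and 0.67 (-1.23 and -0.67), and without it their changes were 1.02 and 0.77, still called. In that fit Ccn2 and Ecm1 were called higher as well, at 0.75 and 0.45, from 1.26 and 0.37 over the 6 arrays.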

How the data were processed

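Biotin-labelled RNA from 3 vector and 3 miR-34a samples was measured on Affymetrix mouse arrays, per the labels' protocols. The authors deposited intensities on a linear scale for 22690 probe sets, fewer than the array model named in the design holds. The sources used here do not give how they were summarised and normalized. Groups and replicate numbers were taken from the titles.

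Probe sets were named from the platform annotation, with 20351 symbols updated through Entrez identifiers and 29 kept, and 64 control probe sets were left out. Taking the probe set with the highest mean log2 value for each gene gave 12393 genes from 20380 probe sets. Testing used log2(intensity + 16), a pseudocount that shrinks the change of dim genes, and limma 3.58.1 (lmFit, eBayes, two-sided, R 4.3.3) at an adjusted p of 0.05. Low values were not filtered, so the 42 genes were all tested. The script was tested on simulated data. Testing each probe set alone was an alternative chosen after seeing the data; the others were other scalings, pseudocounts, a low filter, averaged probe sets, a robust trend, array weights, the replicate block and leaving out each array.

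The members, role groups and further lists were chosen with earlier results of these data known. Every measured member is named, with values per array for those past the threshold and the brightest 2 of each role; of the further lists the genes that passed and, for markers, the brightest are named. Values of some others, such as Col14a1, Sparc, Lum, Pdgfra, Epcam, Acta1 and Cdh2, were added after seeing them. Plots used matplotlib 3.10.9 (Python 3.11.15).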

Additional observations from a re-analysis of the deposited data

How the results depend on the processing

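Of all genes, 1456 were called over the 6 arrays, 3238 with array weights, 522 with the replicate block and 226 to 2133 when 1 array was left out (226 without miR-34a 3, 255 without miR-34a 1, 631 without vector 3, 667 without miR-34a 2). Of the collagen list, 4 genes were called higher, 9 with array weights (adding Col14a1, Plod1, Plod3, Bmp1 and Fbln1), 3 with the replicate block and 1 to 5 when 1 array was left out (the lowest were 1, leaving out miR-34a 3, and 2, leaving out miR-34a 1). The 2 lower calls, Plod2 and Pcolce2, were kept in each of the 15 settings, and with the mean of all probe sets P4ha1 joined them, its change reversed to -0.51 (limma adjusted p = 0.0227, range over its alternatives 0.0227 to 0.998). With the replicate block the call of Pcolce was lost (limma adjusted p = 0.0536, range 0.0024 to 0.091). The deviations of arrays with the same number from their group means had correlations of -0.17, -0.094 and -0.081 across genes. With 3 arrays per group these cannot show whether equal numbers mark paired samples, and the titles do not state it. The list's median change, 0.41, ran from 0.12 without vector 1 to 0.65 without vector 2. Over the 42 genes and 15 settings, 593 of 626 values kept their sign and their side of the threshold. Quantile normalization, median centring, pseudocounts of 1 and 64, the robust trend and leaving out the lower 40% of genes by level called the same 6 genes. The cause of these differences was not tested, and with 3 arrays per group the spread between arrays limits what can be called.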
